A study of Homo sapiens with 6 samples.

Results

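The genes described here are 10 members of the matrix metalloproteinase system in UE7T-9, a line of human mesenchymal stem cells (MSCs) from bone marrow, and in its SRRM4 knockout derivative. They are MMP1, MMP2, MMP3, MMP14, MMP16, MMP19, TIMP1, TIMP2, TIMP3 and TIMP4, chosen by gene symbol out of 58735 genes in the count table. Bulk mRNA sequencing was performed on 3 libraries of wild-type UE7T-9 cells (control) and 3 libraries of UE7T-9 SRRM4 KO cells, cultured in DMEM. The KO cells received a lentiviral CRISPR vector with a guide against SRRM4, a neuronal splicing factor gene, and were selected with puromycin. The KO line was grown from a single cell, so it is 1 clone, and no cloning step is described for the control. The study describes lowered but not absent SRRM4 protein in this line. The deposited table held 0 counts for SRRM4 in all 6 libraries, so RNA gave no check of the knockout labels.

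Matrix metalloproteinases (MMPs) are zinc enzymes that cut collagens, proteoglycans and other proteins of the extracellular matrix. Most are secreted or membrane-bound as inactive proenzymes in which a cysteine of the propeptide holds the catalytic zinc, and other proteases remove that propeptide. Tissue inhibitors of metalloproteinases (TIMPs) block the active site, and TIMP2 also has a second role in which it bridges MMP14 and proMMP2 at the cell surface so that a neighboring MMP14 can activate proMMP2. In bone marrow, stromal cells remodel matrix with MMP2 and MMP14, and TIMP3 stands apart from its relatives because it binds to the matrix and also blocks several ADAM and ADAMTS proteases.

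The sequences below show the parts of these genes, MMP16 excepted, that give both families their names. The enzymes and the inhibitors meet at this site. The stretches for the enzymes encode the zinc-binding site, with capitals for the codons of the 3 zinc-binding histidines and of the catalytic glutamate next to the first of them. The stretches for the inhibitors encode the start of the mature protein, with capitals for the codons of the first and the third residue, both cysteines, of which the first contacts the catalytic zinc. All were read 5′ to 3′ on the coding strand from GENCODE 29 transcripts on GRCh38, and each lies in 1 coding exon.
MMP1, chr11:102795549-102795581, minus strand: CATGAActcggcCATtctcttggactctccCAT
MMP2, chr16:55491827-55491859, plus strand: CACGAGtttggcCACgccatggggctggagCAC
MMP3, chr11:102840535-102840567, minus strand: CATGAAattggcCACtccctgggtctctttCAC
MMP14, chr14:22843283-22843315, plus strand: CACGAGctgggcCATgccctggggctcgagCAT
MMP19, chr12:55839596-55839628, minus strand: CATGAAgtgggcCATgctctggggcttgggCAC
TIMP1, chrX:47583485-47583514, plus strand: TGCaccTGTgtcccaccccacccacagacg
TIMP2, chr17:78924981-78925010, minus strand: TGCagcTGCtccccggtgcacccgcaacag
TIMP3, chr22:32802071-32802100, plus strand: TGCacaTGCtcgcccagccacccccaggac
TIMP4, chr3:12158724-12158753, minus strand: TGCagcTGCgccccggcgcaccctcagcag

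Among these enzyme stretches, which leave out MMP16, MMP2 and MMP14 were the closest pair, with 27 of 33 bases the same. MMP1 and MMP2 were the most distant, with 18 of 33. Among the inhibitors, TIMP2 and TIMP4 shared 26 of 30 bases, and TIMP3 shared 18 or 19 of 30 with each relative. Of 50-base windows along each main transcript, 0 in MMP14, MMP19, TIMP1 and TIMP3 occurred in a transcript of another gene. The 59 windows of MMP3 that did so, 3.00% of its windows, occurred in MMP10. Shares were larger in TIMP2 (13%, most in AC022966.1), TIMP4 (7.56%, in SYN2) and MMP2 (3.44%, in AC007336.3), each with a gene that overlaps it.

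The libraries held 21496117 to 23868323 counts, and 3 counts in a library corresponded to between 0.123 and 0.139 counts per 1000000 counts of scaled library total (CPM). Control replicate 1 stood apart, with a count in 22403 genes against 20127 to 20674 in the other libraries, so results that rest on it are given without it. MSC markers were present, with NT5E at 342 ± 20.7 CPM in control and 490 ± 8.19 CPM in KO cells (mean ± SD, n = 3). ENG stood at 246 ± 19.6 and 194 ± 7.96 CPM, and THY1 at 144 ± 17.7 and 26.7 ± 2.62 CPM. All 9 MSC markers passed the test, as did 41.6% of all tested genes. NT5E and CD44 were higher and the other 7 lower in KO cells, with a median log2 fold change of -2.14 over the 9. The largest falls were in LEPR (246 ± 48.2 to 21.9 ± 1.79 CPM) and VCAM1 (8.71 ± 1.88 to 0.989 ± 0.156 CPM). CXCL12 went from 90.8 ± 3.49 to 18.7 ± 0.614 CPM. The defining leukocyte markers PTPRC and CD68 had 0 to 2 counts in every library, the endothelial markers PECAM1 and CDH5 0 to 3, and the epithelial marker EPCAM 0 to 2. The other myeloid markers of that list were not all at such low counts. CD33 had 0 counts in each control and 28, 21 and 16 counts in KO libraries, was called higher and was at least 6.91-fold higher against 3 counts in each control library. ITGAM had 5, 14 and 13 counts in control and 0 in each KO library, too few to be tested. The summed level of the 7 leukocyte and macrophage markers was 16.8 to 19.1 CPM in control and 16.5 to 19.7 CPM in KO cells, mostly CD14. The 5 endothelial markers summed to 22.5 to 26.1 CPM in control and 4.43 to 5.86 CPM in KO cells, mostly KDR and TEK, and the 5 epithelial markers to 97.0 to 118 and 101 to 108 CPM, mostly KRT18. The part of these markers in the results was not tested.

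The SRRM4 KO line had far less TIMP3 RNA than the control line, moderately less MMP14 and MMP16 RNA, and moderately more MMP2 and TIMP1 RNA. Of the 10 genes, 9 had enough counts to be tested with edgeR's quasi-likelihood test, and 7 of the 9 passed at an adjusted p under 0.05 (Benjamini-Hochberg over 15341 genes). MMP2, MMP3, TIMP1 and TIMP4 were higher in KO cells, and MMP14, MMP16 and TIMP3 were lower. These 7 are 77.8% of the tested members, where 41.6% of all tested genes passed (20.7% higher and 20.9% lower in KO cells). With a log2 fold change beyond 1 in size as a further condition (called below), 2 members remained, MMP3 higher and TIMP3 lower. They are 22.2% of the tested members against 12.6% of all tested genes (5.45% higher and 7.14% lower). The call of MMP3 rests on few counts and was lost in several alternative settings, given below. The median log2 fold change was 0.14 over the tested members and -0.01 over all tested genes. In 8 of the 9 members the normalized values of the groups did not overlap, and 51.8% of all tested genes showed no overlap. The study describes its experiments in general as repeated, and does not say whether the libraries of a group came from separate cultures, so all p-values measure only the spread between these libraries, which may be technical. What is particular to the 1 clone and what goes with SRRM4 cannot be told apart. The labels give the control as wild type. The study discusses lentivirus infection as a possible influence on its control cells, and which vector or selection they received, if any, is not given in the sources used here. In bulk RNA, fewer cells of a kind and less RNA per cell cannot be told apart either.

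**Figure D1:**
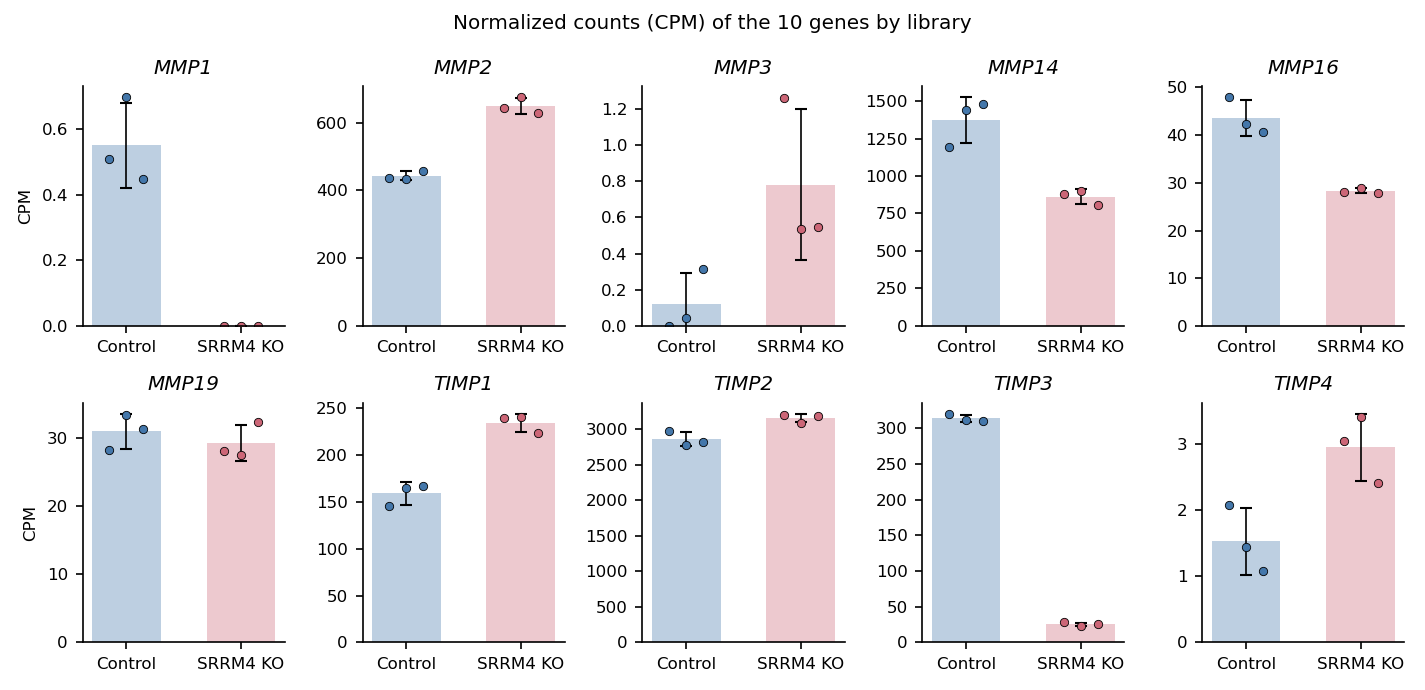
Normalized counts (CPM, linear axis from 0) of each of the 10 genes in 3 control and 3 SRRM4 KO libraries. Points are libraries, bars are means and error bars are SDs. TIMP3 fell from 313 to 25.5 CPM, while the groups of MMP19 overlapped.

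TIMP3 (ENSG00000100234, chr22:32801701-32863043, plus strand, GRCh38) showed the largest change of the inhibitors. Its counts were 6930, 6700 and 6916 in the control libraries and 622, 561 and 560 in the KO libraries. The KO values were close to each other and all far under the controls. The level fell from 313 ± 5.37 to 25.5 ± 2.44 CPM, which is 12.3-fold lower in KO cells, with a log2 fold change of -3.62 (SE 0.095, edgeR adjusted p = 8.58e-13). Leaving out any 1 library gave log2 fold changes between -3.70 and -3.56. TIMP3 lies inside SYN3, a synapsin gene on the opposite strand, and shares 0 exon bases with it. SYN3 had 7, 7 and 1 counts in control and 0 in each KO library, too few to be tested.

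The promoter of TIMP3 is shown because this gene carried the largest change, and because AP-1 and ETS factors are known regulators of the MMP and TIMP families. The 250 bases before its start site, from the RefSeq promoter table (GRCh38.p14), chr22:32801455-32801704, plus strand, read as follows, with capitals for GGAA or its reverse complement, the core of ETS sites.
TIMP3 promoter: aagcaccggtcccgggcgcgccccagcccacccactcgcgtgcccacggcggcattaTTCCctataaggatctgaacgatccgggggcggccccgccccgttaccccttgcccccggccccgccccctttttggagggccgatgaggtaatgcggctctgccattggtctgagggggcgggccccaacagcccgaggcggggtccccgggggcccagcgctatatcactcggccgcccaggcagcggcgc
Promoters of 4 members were in the table, those of MMP14, TIMP1, TIMP3 and TIMP4, as windows of 300 bases that end 50 bases after the start. The AP-1 letters TGANTCA, searched on both strands, were in 0 of these 4 windows and in 7.71% of all 35116 promoters. The stricter TGAGTCA, which is 1 form of TGANTCA, was in 4.95% of all promoters. An exact search misses letters that differ by 1 base, such as TGAGTAA in the TIMP1 window. It therefore does not show that the windows lack AP-1 sites. GGAA was in all 4 windows and in 95.5% of all promoters. The TIMP3 window held 31 CG dinucleotides, more than 79% of promoters, whose median was 14 and whose quartiles were 4 and 28. TIMP1 had 16, TIMP4 had 12 and MMP14 had 10.

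TIMP1 (ENSG00000102265, chrX:47582313-47586789, plus strand), a secreted inhibitor of most soluble MMPs, rose. It had 3138, 3567 and 3718 counts in control and 5331, 5851 and 4917 counts in KO libraries, with every KO library above every control. The level was 159 ± 12.3 CPM in control and 234 ± 9.43 CPM in KO cells, 1.47-fold higher, with a log2 fold change of 0.56 (SE 0.083, edgeR adjusted p = 6.82e-05). It lies inside SYN1 on the opposite strand, with 0 shared exon bases, and SYN1 had 0 to 14 counts per library.

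TIMP2 (ENSG00000035862, chr17:78852977-78925387, minus strand), the inhibitor that also takes part in proMMP2 activation, had the highest level of the 10 genes. Its counts were 64349, 59912 and 62875 in control and 71178, 75258 and 70002 in KO libraries. All KO values lay above the controls, by little: 2855 ± 99.8 CPM in control and 3155 ± 57.0 CPM in KO cells. The log2 fold change of 0.14 (SE 0.056) did not pass the test (edgeR adjusted p = 0.0504). Without control replicate 1 it was 0.17 with an adjusted p of 0.00242, so that library decided on which side of the threshold it fell. The antisense gene AC022966.1 shares 367 exon bases with TIMP2, 6.52% of its exon bases, and had 0 counts in every library, while CEP295NL, which shares 198, had 2 to 29.

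TIMP4 (ENSG00000157150, chr3:12153051-12159351, minus strand), an inhibitor known mostly from heart and brain, was scarce. It had 45, 31 and 24 counts in control and 68, 83 and 53 in KO libraries. The lowest KO library was not far above the highest control, with means of 1.53 ± 0.506 and 2.96 ± 0.507 CPM. The log2 fold change was 0.95 (SE 0.33, edgeR adjusted p = 0.0318), 1.93-fold higher in KO cells. The test was no longer passed without control replicate 2 (adjusted p = 0.0799), control replicate 3 (0.115), KO replicate 1 (0.0793) or KO replicate 2 (0.117), while TIMP4 was called without control replicate 1 (log2 fold change 1.23) and without KO replicate 3 (1.07). TIMP4 lies inside SYN2 on the opposite strand and shares 170 exon bases with it, 10.3% of its own. SYN2 had 0, 5 and 6 counts in control and 17, 8 and 8 in KO libraries, and in these non-stranded libraries reads of the shared bases cannot be assigned to either gene.

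Of the enzymes, MMP14 (ENSG00000157227, chr14:22836557-22849027, plus strand), the membrane-bound collagenase that activates proMMP2, fell. Its counts were 25917, 30995 and 33011 in control and 19580, 21877 and 17683 in KO libraries. Control replicate 1 was the lowest control, yet still above every KO library. The level was 1371 ± 153 CPM in control and 860 ± 50 CPM in KO cells, 1.59-fold lower, with a log2 fold change of -0.67 (SE 0.083, edgeR adjusted p = 1.04e-05).

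MMP2 (ENSG00000087245, chr16:55389700-55506691, plus strand), the gelatinase that MMP14 activates, rose. Its counts were 9476, 9365 and 10224 in control and 14331, 16407 and 13808 in KO libraries. The groups lay well apart, at 443 ± 13.0 and 648 ± 23.5 CPM. KO cells were 1.46-fold higher, with a log2 fold change of 0.55 (SE 0.069, edgeR adjusted p = 1.38e-05). MMP14 and its substrate enzyme MMP2 moved in opposite directions, each with no overlap between the groups.

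MMP16 (ENSG00000156103, chr8:88032009-88328025, minus strand), a second membrane-bound activator of proMMP2, fell with MMP14. It had 1038, 912 and 907 counts in control and 627, 703 and 615 in KO libraries, with no overlap. The level went from 43.6 ± 3.79 to 28.3 ± 0.483 CPM, with a log2 fold change of -0.62 (SE 0.10, edgeR adjusted p = 0.000202).

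MMP19 (ENSG00000123342, chr12:55835433-55842966, minus strand), a basement membrane protease, had 612, 717 and 696 counts in control and 623, 669 and 711 in KO libraries. It was the 1 tested member whose groups overlapped, at 30.9 ± 2.53 and 29.2 ± 2.66 CPM. The log2 fold change was -0.08 (SE 0.11, edgeR adjusted p = 0.62). It shares 814 exon bases, 17.4% of its own, with the pseudogene TMEM198B on the opposite strand, which had 160, 205 and 150 counts in control and 84, 64 and 70 in KO libraries.

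MMP3 (ENSG00000149968, chr11:102835801-102843803, minus strand), the stromelysin that activates proMMP1, was near the limit of detection. Its counts were 0, 1 and 7 in control and 28, 13 and 12 in KO libraries. Every KO library was above every control, but KO replicate 1 held more counts than the other KO libraries together and control replicate 3 nearly all control counts. The level was 0.12 ± 0.169 CPM in control and 0.779 ± 0.414 CPM in KO cells, with a log2 fold change of 2.62 (SE 0.84, edgeR adjusted p = 0.0209). The call was lost without control replicate 1 (adjusted p = 0.0664), control replicate 2 (0.0866) or KO replicate 1 (0.126). Without control replicate 3 the remaining controls held 1 count, and the ratio of summed counts per depth was 33.4 with an exact 95% interval of 5.74 to 1343, which covers counting error only. MMP10, which shares 50-base windows with MMP3, had 0 to 3 counts per library.

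MMP1 (ENSG00000196611, chr11:102789920-102798160, minus strand), the interstitial collagenase, had 11, 15 and 10 counts in control and 0 in each KO library. The filter on low counts left it out of the test. Its control level of 0.55 ± 0.129 CPM was at least 4.19-fold higher than the level that 3 counts in each KO library would give. Without the filter it passed the test (edgeR adjusted p = 0.000377). WTAPP1, a pseudogene on the opposite strand with 150 shared exon bases, had 6, 10 and 3 counts in control and 2, 3 and 6 in KO libraries. MMP1 and MMP3 are near neighbors on chromosome 11, and their counts went in opposite directions.

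Levels of different genes were compared as FPKM, CPM per kilobase of merged exons. In control cells the order was TIMP2 (507 ± 17.7 FPKM), MMP14 (307 ± 34.4), TIMP1 (103 ± 7.99), MMP2 (89.9 ± 2.63), TIMP3 (68.1 ± 1.17), MMP19 (6.61 ± 0.542), MMP16 (3.60 ± 0.313), TIMP4 (0.927 ± 0.307), MMP1 (0.279 ± 0.0657) and MMP3 (0.0586 ± 0.0827). No neighbors in this order overlapped in their 3 libraries. In KO cells TIMP2 (560 ± 10.1 FPKM) and MMP14 (193 ± 11.2) remained the leading genes. TIMP1 (152 ± 6.12) and MMP2 (131 ± 4.76) followed nearer to MMP14 than in control. TIMP3 dropped to 5.53 ± 0.531 FPKM, a level that overlapped with that of MMP19 (6.26 ± 0.57). MMP16 stood at 2.34 ± 0.0399, TIMP4 at 1.79 ± 0.307 and MMP3 at 0.38 ± 0.202 FPKM.

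The makeup of both families shifted, while the inhibitor total moved little. The 4 TIMPs summed to 692, 669 and 676 FPKM in control and 730, 712 and 717 FPKM in KO libraries. TIMP3 made up 10% ± 0.0683 of that sum in control and 0.768% ± 0.0636 in KO cells. TIMP2 alone made up 74.6% ± 1.36 and 77.8% ± 0.865. The ratio of TIMP1 to TIMP3 went from 1.52 ± 0.142 to 27.7 ± 3.04.

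The 6 enzymes summed to 367, 421 and 435 FPKM in control and 336, 346 and 317 FPKM in KO libraries. MMP14 held 75.3% ± 1.92 of that sum in control and 57.8% ± 0.891 in KO cells, and MMP2 22.1% ± 1.76 and 39.5% ± 0.689. The ratio of MMP2 to MMP14 was 0.331, 0.273 and 0.280 in control and 0.662, 0.679 and 0.707 in KO libraries. The ratio of TIMP2 to MMP14 was 1.67 ± 0.258 in control and 2.91 ± 0.208 in KO cells. The summed TIMPs over the summed MMPs gave 1.89, 1.59 and 1.56 in control and 2.17, 2.05 and 2.26 in KO libraries, and the groups did not overlap. With 3 against 3 libraries, an exact permutation test of such a single ratio cannot go below p = 0.10 (two-sided), so no test was run. These are RNA levels, and neither protein nor enzyme activity was measured.

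**Figure D2:**
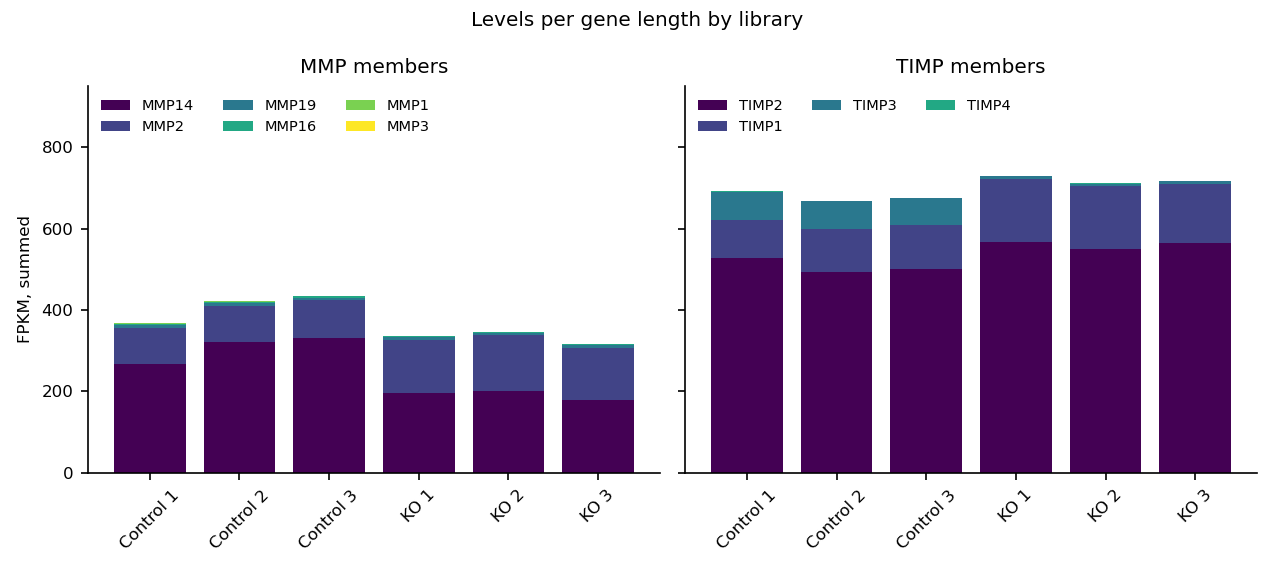
Summed FPKM per library, split by gene, for the 6 MMPs (left) and the 4 TIMPs (right) on 1 linear axis from 0. The KO libraries have a smaller MMP14 part and a larger MMP2 part, and the TIMP3 part, 10% of the TIMP sum in control, shrinks to 0.768%.

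Because the KO line is 1 clone, stretches of chromosome can differ between the lines, so each member was set beside the tested genes that start within 5 Mb. Around TIMP3 the median log2 fold change of 85 tested genes was -0.28, and 84 of them lay above TIMP3. The 1 gene below it, named after its value was seen, was CSF2RB, a cytokine receptor subunit gene, at -3.84. It had counts of 83, 76 and 62 in control and of 3, 12 and 1 in KO libraries. Minus the median of chromosome 22, the log2 fold change of TIMP3 was -3.36.

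TIMP2 showed the reverse situation. Around it, the median log2 fold change of 163 tested genes was 0.69, and 144 of them were above 0. TIMP2, at 0.14, was lower than 143 of the 163. Minus the median of chromosome 17 its log2 fold change was -0.06, so its direction depended on this centering. Around TIMP1 the median was 0.37 over 66 genes, and minus the chromosome X median TIMP1 was at 0.24. For the remaining tested members the medians around them lay between -0.15 and 0.12. No DNA copy number was measured.

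The other MMPs were low or lower in KO cells. Of 17 further MMP genes, 5 could be tested and 5 had 0 counts in every library, among them MMP9, the other gelatinase. MMP11, MMP15, MMP24 and MMP28 were called lower, and 0 were called higher. MMP11, a stromal protease, went from 48.0 ± 3.91 to 9.93 ± 2.34 CPM, with a log2 fold change of -2.27. MMP15, a membrane-type relative of MMP14, had a log2 fold change of -1.41 and MMP24, another, of -1.32. MMP28 had 113, 157 and 81 counts in control and 1, 2 and 0 in KO libraries, a ratio of 123 with an exact 95% counting interval of 41.6 to 597. MMP17, the remaining tested gene, was at 2.13 ± 0.613 and 1.84 ± 0.382 CPM and did not pass. The median log2 fold change of the 5 was -1.41, and the sum over all 23 MMP genes was 426 ± 36.9 FPKM in control and 338 ± 15.5 FPKM in KO cells.

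Among the proteases that activate proMMPs, listed with the urokinase receptor gene PLAUR, 10 of 11 genes were tested, 5 passed higher and 4 lower, with a median log2 fold change of 0.14. PLAT, the tissue plasminogen activator, was called higher at 1.34, from 72.6 ± 7.47 to 184 ± 6.83 CPM. The others that rose were PLAU (urokinase) at 0.98, PLAUR at 0.95, FURIN, which activates MMP14, at 0.60 and CTSB at 0.31. PLAU was also called when control replicate 3 or KO replicate 3 was left out, and PLAUR when control replicate 3 was. CTSK, a bone collagen protease, was called lower at -1.40, from 321 ± 16 to 121 ± 3.91 CPM. The furin relatives PCSK5 and PCSK6 were called lower at -1.25 and -2.67, and CTSL fell by 0.41 on the log2 scale. In each of the 2 stricter settings named for the other MMPs, 2 genes of this list were called lower instead of 3. PLG, the plasminogen gene, had 0 counts in all libraries.

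Of 8 listed genes of other MMP inhibitors and related proteins, 5 were tested, and 4 of these passed, all lower, with a median log2 fold change of -1.43. PCOLCE, whose protein enhances procollagen processing and has a TIMP-like domain, was called lower at -3.32, from 157 ± 9.0 to 15.7 ± 0.859 CPM. SPOCK1, a testican, was called lower at -2.11 and TFPI2 at -1.43. RECK, a membrane-anchored MMP inhibitor, also fell, at -0.74. SPOCK3 did not pass, at 1.64 ± 0.472 and 1.43 ± 0.646 CPM. A2M had 6, 22 and 20 counts in control and 0 in each KO library, at least 5.57-fold lower against 3 counts in each KO library, and was not tested.

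The cell surface partners of MMPs leaned the other way. All 13 were tested, 8 passed higher and 2 lower, with a median log2 fold change of 0.63. Over all tested genes, 20.7% passed higher and 20.9% lower. CD44, a hyaluronan receptor that docks MMP14, was called higher at 1.39, from 147 ± 4.09 to 386 ± 8.69 CPM. ITGB3, an integrin chain that with ITGAV binds MMP2, was called higher at 2.09, while ITGAV fell by 0.81 on the log2 scale. TSPAN14 (1.28) and SDC1 (1.24) were also called higher. TSPAN12, a tetraspanin that binds MMP14, was called lower at -1.41. Of the most abundant genes that were not called, CD63 rose by 0.41 on the log2 scale and ITGB1, at 1361 ± 119 and 1526 ± 48.4 CPM, did not pass.

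Among uptake receptors and carriers that clear MMPs and TIMPs, 6 genes were tested, with a median log2 fold change of -0.08. LRP8 was called higher at 1.44. LRP1, the main clearance receptor for MMP2 and TIMP complexes, had a log2 fold change of -0.61 (1937 ± 180 CPM in control and 1270 ± 171 CPM in KO cells) and fell, and THBS1 and THBS2 fell by 0.25 and 0.93.

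ADAM and ADAMTS genes encode proteases of which TIMP3 blocks several, though some, such as ADAM8 and ADAM9, are known to resist TIMPs. All 12 in the list were tested, 3 passed higher and 4 lower, with a median of -0.13. ADAMTS2, the procollagen N-propeptidase, was called lower at -1.97, and ADAM19 at -1.56. ADAM33 had 65, 93 and 111 counts in control and 1, 0 and 0 in KO libraries, a ratio of 282 with an exact 95% counting interval of 50.1 to 11167, and was called lower. ADAMTS5, an aggrecanase, also fell, by 0.69 on the log2 scale. ADAM12 rose by 0.78, ADAMTS1 by 0.36 and ADAM15 by 0.25. The most abundant members, ADAM9 (948 ± 61.7 and 981 ± 44.7 CPM) and ADAM10 (297 ± 29.7 and 279 ± 19.8 CPM), did not pass, nor did ADAM17, the TNF sheddase, at 74.6 ± 4.02 and 66.2 ± 3.07 CPM.

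The list of transcription factors known to regulate MMP and TIMP genes held AP-1 and ETS factors and 1 Runt factor, RUNX2. Of its 16 genes 15 were tested, 7 passed higher, among them RUNX2 at 0.61, and 1 lower, with a median of 0.26. FOS was called lower at -1.11, from 216 ± 35.6 to 100 ± 4.27 CPM, and it lost the call when control replicate 3 was left out or when the test itself required more than a 2-fold change. FOSL1, at 0.98, was called higher when control replicate 2 or control replicate 3 was left out. ETS1 (152 ± 4.72 and 145 ± 3.97 CPM) and JUND (134 ± 14.6 and 142 ± 12.1 CPM), the genes not called with the highest mean CPM over all 6 libraries, did not pass.

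Most tested substrates of the MMPs were lower. Of 16 genes 15 were tested, 10 passed lower and 2 higher, with a median log2 fold change of -1.23. The fibrillar collagen genes COL1A1 (-1.23), COL1A2 (-1.70) and COL3A1 (-1.48) and the basement membrane gene COL4A1 (-1.50) were called lower. COL1A1, the most abundant gene in these lists, went from 27881 ± 1684 to 11870 ± 864 CPM. The small proteoglycan genes DCN (-3.36) and BGN (-5.36) were called lower as well. ACAN, which encodes aggrecan, had 2947, 3247 and 3460 counts in control and 0 in each KO library, at least 1120-fold lower against 3 counts in each KO library. ELN, the elastin gene, went from 412, 488 and 468 counts to 0, at least 159-fold lower. FN1, the fibronectin gene, fell by 0.97 and COL4A2 by 0.98 on the log2 scale. SPP1, which encodes osteopontin, was called higher at 2.62, from 19.0 ± 0.736 to 117 ± 9.48 CPM, and COL4A6 rose by 0.83.

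These lists held 103 genes, including SYN1, SYN2 and SYN3, which were not tested. Of the 103, 81 were tested, 27 passed higher and 32 lower, and 7 were called higher and 23 lower. The median log2 fold change was -0.09. The background for each list is that 20.7% of all tested genes passed higher and 20.9% lower. The called genes are 37.0% of the tested list genes, against the background of 12.6%. The lists were put together from known roles, with earlier results of these data in view, so this share describes the listed genes only.

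The genes whose pattern was most like that of TIMP3, by Pearson correlation of log2 CPM over the 6 libraries, were ANO5 (r = 0.9998), ALPL (0.9997) and IGF1R (0.9995). Their counts were 507, 452 and 464 against 3, 1 and 2 for ANO5, 495, 481 and 492 against 235, 244 and 222 for ALPL, and 2647, 2632 and 2700 against 1528, 1633 and 1522 for IGF1R. The changes behind these correlations differed much in size, with log2 fold changes of -7.87, -1.13 and -0.83. With only 2 groups the correlation mainly reflects the group difference, and 302 of 12958 tested protein-coding genes had an r above 0.99.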

How the data were processed

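The authors deposited 1 table of raw counts per gene for the 6 libraries, per the labels made with HISAT2 2.0.5 and featureCounts 1.5.0-p3. Libraries were non-stranded mRNA-seq, sequenced on an Illumina NovaSeq. The genome build was not given in the sources used here. All 58735 gene IDs occur in GENCODE 29 (GRCh38), 58724 with the same start and end, including the 10 members. How reads of overlapping genes were treated is not given either.

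Counts were fitted over the whole table with edgeR 4.0.16 in R 4.3.3 (filterByExpr, TMM, quasi-likelihood test, group only, prior count 0.125, Benjamini-Hochberg adjustment over 15341 genes). Errors are SD over 3 libraries or the fit's SE. A gene passed at an adjusted p under 0.05 and was called when its log2 fold change also exceeded 1 in size. CPM used TMM-scaled totals. FPKM divided CPM by the length in the file. On simulated counts for this comparison (15031 genes tested), 185 of 193 changed genes were recovered and 3 unchanged genes were called. The planted changes were all larger than those of MMP2, MMP14, MMP16 and TIMP1. They also covered a far smaller share of genes than passed in the real data. This recovery therefore does not measure the power for changes as small as those of these members. DESeq2 1.42.0, other scalings, filters, thresholds, a replicate block and each library left out were the alternatives. The same-numbered libraries did not deviate together.

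The members and lists were chosen with earlier results of these data known. Named genes are the members, genes overlapping them, the called genes of each list with up to 2 abundant others, and the 3 genes most like TIMP3. Others were named after their values were seen. The result of 1 gene of the uptake list is not reported here.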

Additional observations from a re-analysis of the deposited data

How the results depend on the processing

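TIMP3 stayed called under each alternative with a test (log2 fold change -3.70 to -3.56), and MMP19 under none. Requiring a change beyond 2-fold in the test itself (glmTreat) gave 360 genes higher and 577 lower. Members called higher then numbered 0, and MMP2 (0.55), MMP3 (2.62, edgeR adjusted p = 0.213), MMP14 (-0.67), MMP16 (-0.62), TIMP1 (0.56) and TIMP4 (0.95) no longer passed. With no fold change threshold, 3171 genes were higher and 3213 lower, as were 4 and 3 members, and 27 listed genes were higher. With at least 10 counts in every library, 0 members were called higher, since MMP3 was left out. With no filter, 2 members were called lower, MMP1 being the addition, at a bound of -2.07.

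Leaving out 1 library at a time gave 0 to 2 members called higher and 1 to 2 lower. MMP1 was tested in 4 of these fits, with bounds of -2.20 to -2.02 and adjusted p of 0.00357 to 0.00516. MMP3 ranged from 2.06 to 4.77, the latter without control replicate 3, where a fitted size has little meaning. TIMP2 ranged from 0.12 to 0.17 and TIMP4 from 0.75 to 1.23. Without control replicate 1, 7 members still passed, TIMP2 in place of MMP3. Without control replicate 2, 5 passed. Minus the chromosome 17 median, TIMP2 was at -0.06. The cause of these changes was not tested.

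With the replicate number as a replicate block, 842 genes were called higher and 1093 lower, and the log2 fold change was -3.63 for TIMP3 and 2.71 for MMP3. No member's call changed. Deviations of same-numbered libraries correlated at -0.0546, 0.0831 and -0.0529, and those of other pairs at -0.114 to 0.158. No shared deviation of same-numbered libraries was seen. This cannot show whether the samples were prepared as pairs. Depth limits MMP1 and MMP3, whose levels are within a few times that of 3 counts.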
